A study of Mus musculus with 273 samples.

Results

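The comparison set hypothalamus taken at zeitgeber time 0 (ZT0) against hypothalamus taken at ZT12, with 12 small RNA libraries a side. Libraries were chosen by the tissue and ZT in their labels, which gave 24 of the 72 hypothalamus libraries and of the 273 libraries in the series. All mice were wild-type C57BL/6J males aged 26 weeks, and each library carried a different CRM code, read here as the code of its animal since it recurs in the other tissues; the labels do not define it. The ZT0 group joined 6 libraries taken at 0 h with 6 taken at 24 h, and the ZT12 group joined 6 taken at 12 h with 6 taken at 36 h. By convention ZT0 is lights on and ZT12 lights off, so that a nocturnal mouse has just ended its active night at ZT0 and its rest phase at ZT12; the labels do not give the light schedule. The tables count reads per miRNA hairpin, with both arms added.

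A miRNA is cut from a hairpin in a longer transcript, is loaded into an Argonaute protein and lowers the output of mRNAs that pair with its seed, bases 2 to 8. The hypothalamus holds the suprachiasmatic nucleus, the pacemaker of the circadian clock, together with neurons that govern feeding, temperature, sleep and pituitary hormones. Some miRNAs are known to act on clock output, among them miR-132 and miR-219a, which respond to light or to the clock in the suprachiasmatic nucleus. The miR-200 family (miR-200a, miR-200b, miR-200c, miR-141 and miR-429) holds cells in an epithelial state, miR-375 is known from pancreatic islets and pituitary, and miR-144 and miR-451a are miRNAs of red blood cells.

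The sequences below, from RefSeq (GRCm38.p6), are those of miRNAs on which the results turn. The first pair are whole hairpins of called miRNAs. The others are mature forms with the seed in capitals, shown because they moved in the same libraries or, for the last pair, because they come from neighbouring hairpins.
miR-5099 hairpin: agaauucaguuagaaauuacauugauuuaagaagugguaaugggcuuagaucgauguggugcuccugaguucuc
miR-375 hairpin: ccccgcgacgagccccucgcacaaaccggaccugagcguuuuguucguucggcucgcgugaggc
miR-141-3p: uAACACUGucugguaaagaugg
miR-200a-3p: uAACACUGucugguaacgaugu
miR-200b-3p: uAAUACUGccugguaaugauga
miR-200c-3p: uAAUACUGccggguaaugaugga
miR-429-3p: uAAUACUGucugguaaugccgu
miR-144-3p: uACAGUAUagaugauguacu
miR-451a: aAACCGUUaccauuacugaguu
miR-141 and miR-200a share the seed AACACUG, while miR-200b, miR-200c and miR-429 share AAUACUG. miR-144 (chromosome 11, 78073005 to 78073070) and miR-451a (chromosome 11, 78073170 to 78073241) lie on the plus strand, and miR-451a starts 100 bases after the end of miR-144.

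Total counts ran from 1079380 to 3928624 per library at ZT0 (median 2123139.5) and from 1171850 to 3808289 at ZT12 (median 1836987.5). CPM below are counts scaled by TMM to a common library total. Where a hairpin has a count of 0, up to 3 counts remain possible, at most 2.66 CPM in these libraries (counting error only). The neuronal list had a median summed level of 9436 CPM at ZT0 and 9321 CPM at ZT12, while the 6 muscle miRNAs had medians of 0.217 and 0.245 CPM. ZT0 replicate 9 stood apart on the first principal component (32.1% of the variance), at 16.7 against at most 4.94 in the other libraries. The labels give an L code, whose meaning is not stated. A stretch of consecutive library numbers with the same L code is called a library run below. The 24 libraries fell in 10 runs, of which 4 held both groups. Those 4 runs held 18 libraries, and run 9 held 4 of each group.

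Few miRNAs differed between ZT0 and ZT12. Of 353 hairpins tested, 3 passed an adjusted p of 0.05 by edgeR's quasi-likelihood test, which is 0.85% of those tested. miR-124-2 and miR-5099 were lower at ZT0 (0.567%), and miR-375 was higher (0.283%) through 1 library. An unadjusted p under 0.05 was found for 16 hairpins (4.53%), 9 higher (2.55%) and 7 lower (1.98%) at ZT0. With library run as a term, edgeR called 0 hairpins and 15 had an unadjusted p under 0.05. In run 9 alone it also called 0, with 22 under 0.05. Fits of run by another tool were not made.

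**Figure D1:**
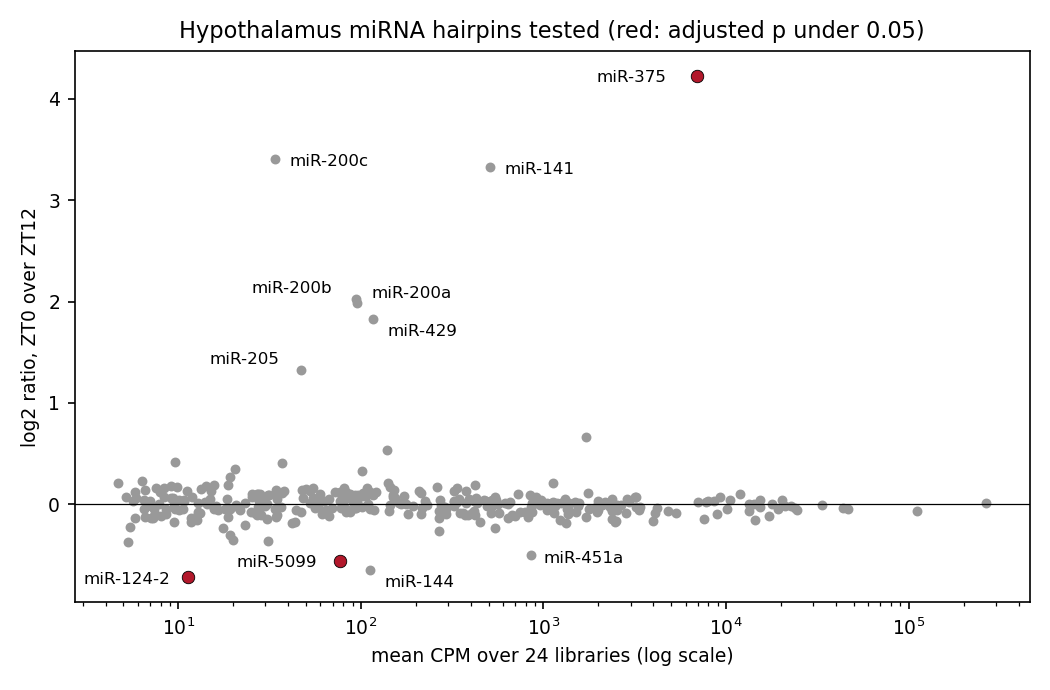
Each point is 1 of the 353 hairpins tested, with its mean level over the 24 libraries (CPM, log axis) and its log2 ratio of ZT0 over ZT12; red points passed the adjusted threshold. miR-375 and the miR-200 family lie highest, and miR-124-2, miR-144, miR-5099 and miR-451a lie lowest of the labelled points.

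miR-124-2 is one of several hairpins of miR-124, the abundant miRNA of neurons that represses non-neuronal genes. It lies on chromosome 3 (17795662 to 17795770) in an exon of the long non-coding RNA Mir124-2hg. It had 6.05 to 13.3 CPM at ZT0 (median 7.78) and 11.4 to 16.9 CPM at ZT12 (median 13.2). The groups overlapped little: 10 of the 12 ZT0 libraries were below the lowest ZT12 library. The mean was 8.68 ± 2.29 CPM at ZT0 and 13.8 ± 1.77 CPM at ZT12 (SD, n = 12 each), a log2 ratio of -0.72 ± 0.12 (SE) or 0.608-fold, with adjusted p = 0.00107 by edgeR. A permutation test of the mean log2 CPM (two-sided, 100000 resamples) gave p = 2e-05. It used the libraries in which the miRNA had been picked from 353, shuffled them across runs and passages, and so is no independent support. In bulk tissue, fewer cells of a type and less RNA per cell cannot be told apart.

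These were small counts. Libraries held 8 to 34 reads of miR-124-2 at ZT0 (median 17.5) and 14 to 66 at ZT12 (median 24.5). The mature miRNA is made from several loci, and how reads that fit several of them were counted is not stated, so the value is uncertain as a measure of miR-124. miR-124-1 had 0 to 3 reads a library at ZT0 and 0 to 5 at ZT12, miR-124-3 had 0 to 1 and 0 to 3, and miR-124b had none in any library. With copies summed the log2 ratio was -0.72 and the adjusted p 5.162e-04. Most summed reads were those of miR-124-2, with 221 at ZT0 and 335 at ZT12. miR-124-1 added 19 and 21, and miR-124-3 added 3 and 11. The sum thus repeats the result of miR-124-2 and does not settle the doubt over miR-124.

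The ratio of miR-124-2 stayed below 0 with library run as a term and in run 9, and passed in neither fit. Single runs did not all share that direction. In run 5 the ZT0 library stood at 13.3 CPM and the ZT12 libraries at 11.4, 12.1, 12.2 and 14.5 CPM. In run 2 the values were 7.95 CPM at ZT0 and 15.8 CPM at ZT12. Run 8 held 7.68 CPM at ZT0 against 12.7 and 16.1 CPM at ZT12. With run as a term the log2 ratio was -0.60 (adjusted p = 0.213). In run 9 the mean was 9.29 ± 2.47 CPM at ZT0 and 14.1 ± 1.87 CPM at ZT12 (SD, n = 4 each), with no overlap, since ZT0 ended at 11.96 CPM and ZT12 started at 13.03 CPM. That ratio was -0.60 with adjusted p = 0.7102 by edgeR. In the first passage, 0 h against 12 h, the log2 ratio was -0.89 (adjusted p = 0.0339), and in the second, 24 h against 36 h, it was -0.52 (adjusted p = 0.999). Of 17 alternatives 14 called miR-124-2, with adjusted p between 1.431e-04 and 0.999.

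miR-5099 (chromosome 12, 36816205 to 36816278, outside annotated genes) was the other miRNA lower at ZT0. It had 46.5 to 86.3 CPM at ZT0 (median 60.7) and 66.6 to 121.6 CPM at ZT12 (median 86.7). All 12 ZT0 libraries were below the ZT12 median, and 8 were below the lowest ZT12 library. Means were 63.3 ± 13.04 CPM and 91.4 ± 16.4 CPM (SD, n = 12 each), a log2 ratio of -0.55 ± 0.11 with adjusted p = 0.00528 by edgeR. The same permutation test gave p = 7e-05.

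Within runs the ratio of miR-5099 was -0.56 with run as a term (adjusted p = 0.117) and -0.33 in run 9 (adjusted p = 0.824). Run 9 held 69.9 ± 14.3 CPM at ZT0 and 87.4 ± 9.60 CPM at ZT12 (SD, n = 4 each), and its groups overlapped. The passages gave -0.46 (adjusted p = 0.999) for 0 h against 12 h and -0.64 (adjusted p = 0.0291) for 24 h against 36 h. Of 17 alternatives 14 called it, with adjusted p between 1.431e-04 and 0.999.

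**Figure D2:**
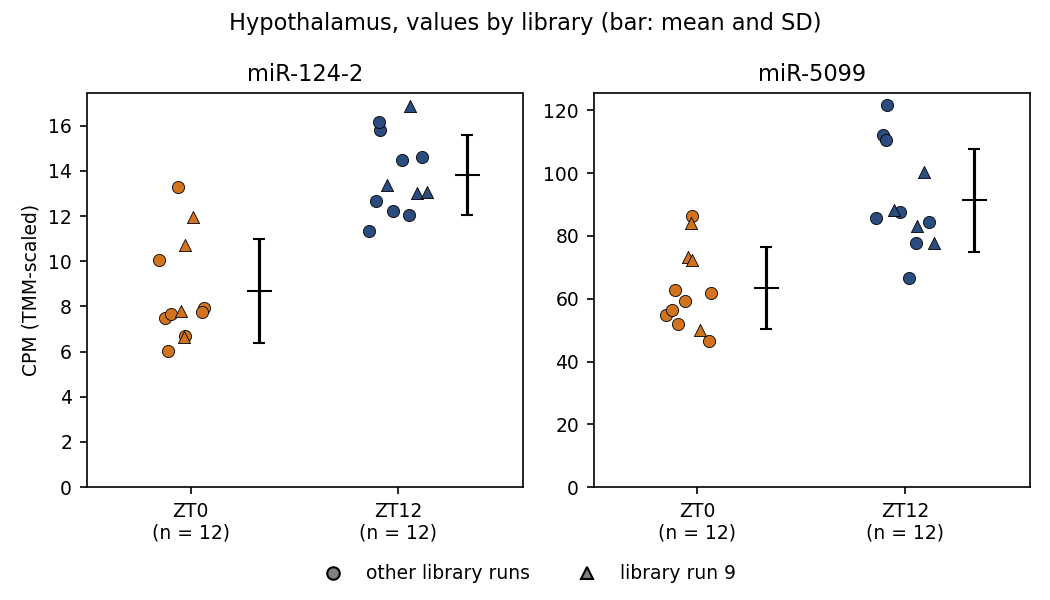
Each point is 1 hypothalamus library (CPM, TMM-scaled), with ZT0 left of ZT12, triangles for library run 9, and bars for the mean and SD of 12 libraries. For miR-124-2, 10 of 12 ZT0 libraries lie below every ZT12 library; for miR-5099, 8 do.

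miR-375 (chromosome 1, 74900658 to 74900721) passed on 1 library. ZT0 ran from 443 to 143920 CPM with a median of 780, and ZT12 from 311 to 1284 CPM with a median of 601. ZT0 replicate 9 held the 143920 CPM, 11.2% of its reads, and ZT0 replicate 2 followed with 6106 CPM. The other 10 ZT0 libraries, at 443 to 899 CPM, lay inside the ZT12 range. The log2 ratio was 4.23 ± 1.01 (adjusted p = 0.0343 by edgeR), but the permutation test of mean log2 CPM gave p = 0.11. Without ZT0 replicate 9 the ratio was 0.84 (adjusted p = 0.995), and without replicates 2 and 9, a choice made after seeing the values, 0.09 (adjusted p = 0.998). DESeq2, run with its default treatment of outlying counts, gave 0.76 (adjusted p = 0.997), and limma, run with library weights, 0.42 (adjusted p = 0.997). With run as a term the ratio was 4.21 (adjusted p = 0.673) and in run 9, which held replicate 9, it was 5.97 (adjusted p = 0.7102). Of 17 alternatives 6 called it, with adjusted p between 7.358e-04 and 0.999.

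Other miRNAs were high in ZT0 replicate 9 too. The miRNAs set beside miR-375 here were chosen after their values were seen. miR-141 stood at 10076 CPM there and miR-200c at 660 CPM, which is 150.4 and 123.99 times their median in the 70 hypothalamus libraries left once replicate 9 and ZT9 replicate 8 are set aside. miR-429 (1690 CPM), miR-200a (1475 CPM) and miR-200b (1328 CPM) were 45.05, 54.4 and 37.9 times that median. miR-205, an epithelial miRNA, was 18.7 times, and miR-182, miR-183 and miR-96, a cluster known from sensory epithelia, were 9.62, 9.66 and 13.2 times.

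The miR-7 hairpins, which are abundant in hypothalamus and pituitary, split. miR-7b was 2.71 times and miR-7a-2 2.40 times the median in ZT0 replicate 9, while miR-7a-1 was 0.841 times. How reads that fit several hairpins were counted is not stated, so the split of miR-7a-1 and miR-7a-2 is uncertain. ZT9 replicate 8, outside the comparison, showed a like set, with miR-375 at 93818 CPM and miR-141 at 6943 CPM. In ZT0 replicate 2 miR-141 was at 230 CPM and miR-200c at 34.6 CPM, but miR-205 (21.3 CPM) was below the median of 24.4 CPM.

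**Figure D3:**
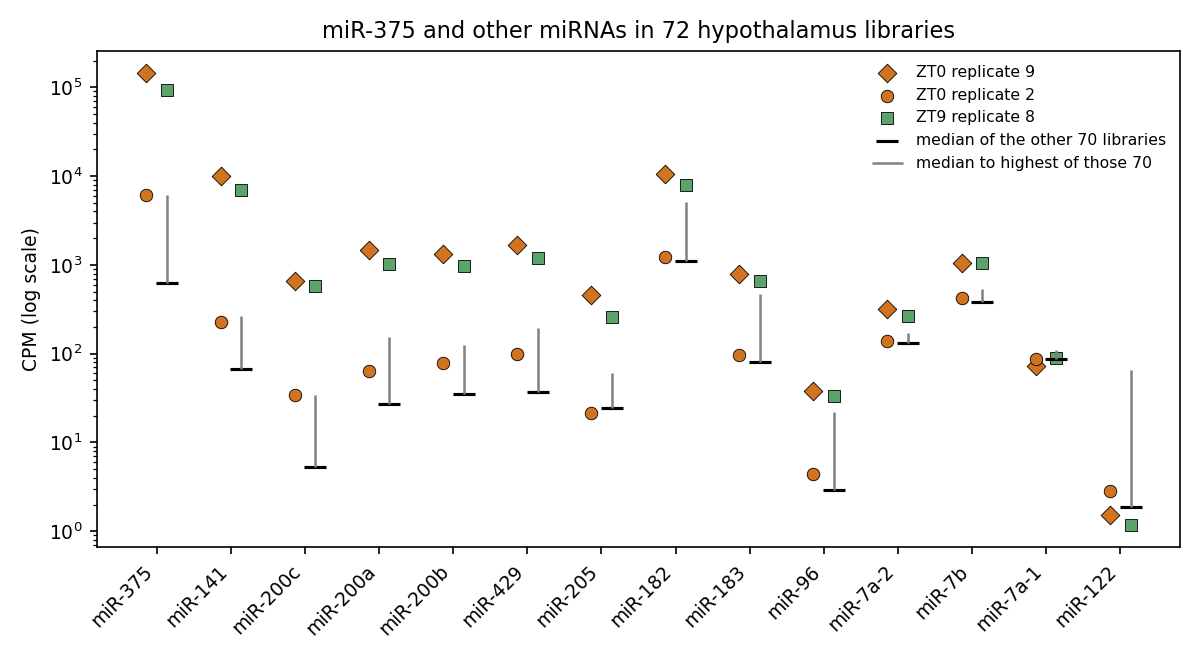
Levels (CPM, log axis) of miR-375 and other miRNAs in ZT0 replicates 9 and 2, in ZT9 replicate 8, and as the median and highest of the 70 other hypothalamus libraries, which include ZT0 replicate 2. Replicate 9 exceeds all 70 for every miRNA from miR-375 to miR-7b, but not for miR-7a-1 or miR-122.

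None of these companions passed. miR-200c had a log2 ratio of 3.40 ± 0.97 and miR-141 of 3.32 ± 0.98 (adjusted p = 0.141 for both by edgeR). Without ZT0 replicate 9 their ratios were 0.55 and 0.06 (adjusted p = 0.995 for both). miR-200b had 2.03 (adjusted p = 0.287), and miR-200a (1.99) and miR-429 (1.83) had adjusted p = 0.491. miR-205 had 1.32 (adjusted p = 0.479), and its lowest ratio with 1 library left out was 0.27. In the list of pituitary or sensory epithelium markers, 1 of 8 tested members was called higher, against 0.283% of all hairpins, all 8 ratios were above 0, and the median was 2.01 against 0.00 over all hairpins tested. Without replicate 9 that median was 0.05. The summed level of the 9 listed markers ran from 1009 to 170522 CPM at ZT0 (median 2655, second highest 7954) and from 1010 to 5983 CPM at ZT12 (median 1990), and no marker was at 0 in all libraries of a group. The part of these cell types in the result was not tested.

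miR-144 and miR-451a, the red cell pair printed above, had lower means at ZT0 and did not pass. miR-144 had 56.7 to 133.8 CPM at ZT0 (median 78.5) and 57.1 to 202 CPM at ZT12 (median 131). The ranges overlapped, with 11 of 12 ZT0 libraries below the ZT12 median. Its log2 ratio was -0.65 ± 0.19 (adjusted p = 0.141 by edgeR), and 0 of 17 alternatives called it. Leaving out each library in turn, 1 of 24 fits called it, the fit without ZT12 replicate 1 (-0.71, adjusted p = 0.0408). The highest adjusted p of those 24 fits was 0.458, without ZT0 replicate 9. In run 9 miR-144 averaged 80.9 ± 21.99 CPM at ZT0 and 173 ± 22.7 CPM at ZT12 (SD, n = 4 each) with no overlap, and its ratio there was -1.10 (adjusted p = 0.0969). With run as a term the ratio was -0.48 (adjusted p = 0.952).

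miR-451a had 481 to 1049 CPM at ZT0 (median 666.4) and 474 to 1870 CPM at ZT12 (median 1061), a log2 ratio of -0.50 ± 0.19 (adjusted p = 0.479). miR-486a, also of red cells, had means of 27.5 ± 6.50 and 34.8 ± 15.0 CPM (ratio -0.36, adjusted p = 0.998). Of the 4 red cell miRNAs, 0 were called, 2 had a lower level at ZT0 with an unadjusted p under 0.05, against 1.98% of all hairpins, and the median ratio was -0.43. The other member, miR-486b, had a ratio of 0.06. Their summed level ran from 588 to 1212 CPM at ZT0 (median 801.7) and from 585 to 2129 CPM at ZT12 (median 1236). Blood left in the tissue was not tested.

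**Figure D4:**
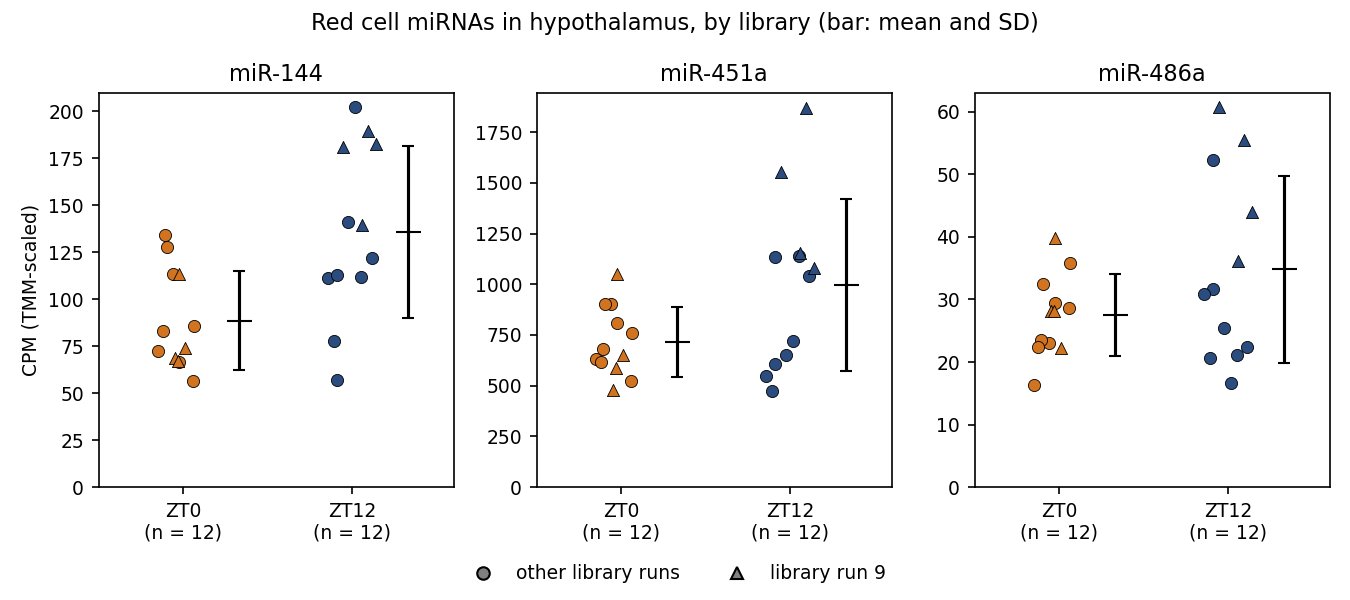
Each point is 1 hypothalamus library (CPM, TMM-scaled), with ZT0 left of ZT12, triangles for library run 9, and bars for the mean and SD of 12 libraries. In run 9 the ZT0 libraries of miR-144 lie at 67.1 to 113.6 CPM, below its ZT12 libraries at 139 to 189 CPM; over all runs the groups overlap for all 3 miRNAs.

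Outside the sets above, the miRNAs with the smallest p values given here were small differences. miR-758 of the imprinted Dlk1-Dio3 cluster averaged 1183 ± 104 CPM at ZT0 and 1293 ± 72.1 CPM at ZT12 (ratio -0.16, adjusted p = 0.287), and miR-679 of the same cluster 23.2 ± 6.32 and 17.9 ± 2.92 CPM (ratio 0.34, adjusted p = 0.370). miR-493 averaged 21.1 ± 3.72 and 17.2 ± 4.44 CPM (ratio 0.27, adjusted p = 0.998 by edgeR). miR-8114, in an exon of the glutamine synthetase gene Glul, averaged 17.7 ± 4.56 and 22.01 ± 6.49 CPM (ratio -0.35), and miR-20a of the miR-17 to miR-92 cluster, which promotes proliferation, 17.3 ± 3.59 and 21.1 ± 5.80 CPM (-0.30). miR-338, made in oligodendrocytes from an intron of Aatk, averaged 3783 ± 470 and 4180 ± 762 CPM (-0.17), and the adjusted p was 0.998 for all 3. Of 44 tested members of the Dlk1-Dio3 cluster 0 were called, with a median ratio of 0.02. Its leading members, miR-127 and miR-434, held 270103 ± 36490 and 110229 ± 14405 CPM at ZT0 against 261981 ± 23542 and 113048 ± 17466 CPM at ZT12, with ratios of 0.02 and -0.07.

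The clock-linked and activity-regulated lists hold miR-124-2 in common. Of 36 clock-linked miRNAs tested it alone was called, with 0.85% called over all hairpins. The list had 19 ratios above 0, 17 below and a median of 0.00. miR-132 averaged 3215 ± 639 CPM at ZT0 and 3194 ± 644 CPM at ZT12 (SD, n = 12 each; ratio -0.02 ± 0.11), and its neighbour miR-212 1266 ± 214 and 1226 ± 82.9 CPM (0.02 ± 0.07). miR-219a-2, which also marks oligodendrocytes, averaged 650 ± 87.4 and 687 ± 161 CPM (-0.10 ± 0.11). The adjusted p was 0.998 for all 3. Of the 7 activity-regulated miRNAs miR-124-2 alone was called, with a median of -0.01, and of 5 sleep-linked miRNAs 0 were called, with a median of 0.04.

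Counts in the lists of hypothalamic function stand against the same 0.85% over all hairpins. In the hypothalamic and neuroendocrine list miR-375 alone of 11 was called, with a median of 1.83 that was 0.06 without ZT0 replicate 9. Of 14 feeding miRNAs 0 were called (median 0.00). The Htr2c intron cluster, carried in a serotonin receptor gene, had 0 of 4 called (median -0.02); its most abundant member, miR-1298, averaged 852 ± 80.7 CPM at ZT0 and 849 ± 89.3 CPM at ZT12. The let-7, miR-30 and miR-29 families had 0 of 12, 0 of 6 and 0 of 4 called, with medians of 0.05, -0.04 and -0.01.

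Markers of other cells gave 0 calls outside the pituitary or sensory epithelium list. Medians were -0.10 for oligodendrocytes (3 tested), -0.01 for choroid plexus (5), -0.07 for white blood cells (6), -0.09 for vessels (5) and 0.00 for liver (3). Neuronal miRNAs had 1 of 12 called, again miR-124-2, and a median of 0.01. No muscle miRNA was tested.

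Levels at the other times of day place the pair. miR-124-2 averaged 8.68 CPM at ZT0, 9.92 at ZT3, 11.04 at ZT6, 12.2 at ZT9 and 13.8 at ZT12, with both passages pooled. In the second passage alone the means were not in order, with 13.1 CPM at 30 h, 12.3 CPM at 33 h and 13.4 CPM at 36 h. From the first passage alone, it then averaged 8.68 ± 2.64 CPM at ZT15 (n = 5), 9.97 at ZT18 and 10.8 at ZT21. miR-5099 was lowest at ZT0 (63.3 CPM) and ZT18 (63.6 CPM) and, with passages pooled, highest at ZT6, with 98.6 ± 16.3 CPM (n = 12). Its highest mean in the first passage was 103.5 CPM at 6 h. In the second it was 101.7 CPM at 33 h, with 93.8 CPM at 30 h. SDs of neighbouring times overlapped for miR-124-2 except between ZT12 and ZT15. Library runs were not spread evenly over the times, and their part in these levels was not tested. For miR-5099, ZT6 replicates 1 to 4, all of run 2, held 118.1, 121.3, 100.9 and 101.8 CPM. Of these, replicate 3 was taken at 30 h and the others at 6 h. The other ZT6 libraries ran from 61.7 to 112.6 CPM. For miR-124-2, ZT9 replicates 1 and 2, of runs 1 and 2, held 7.72 and 8.49 CPM. The others at ZT9 ran from 11.1 to 17.03 CPM. ZT12 replicate 1, of run 2, held 15.8 CPM.

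**Figure D5:**
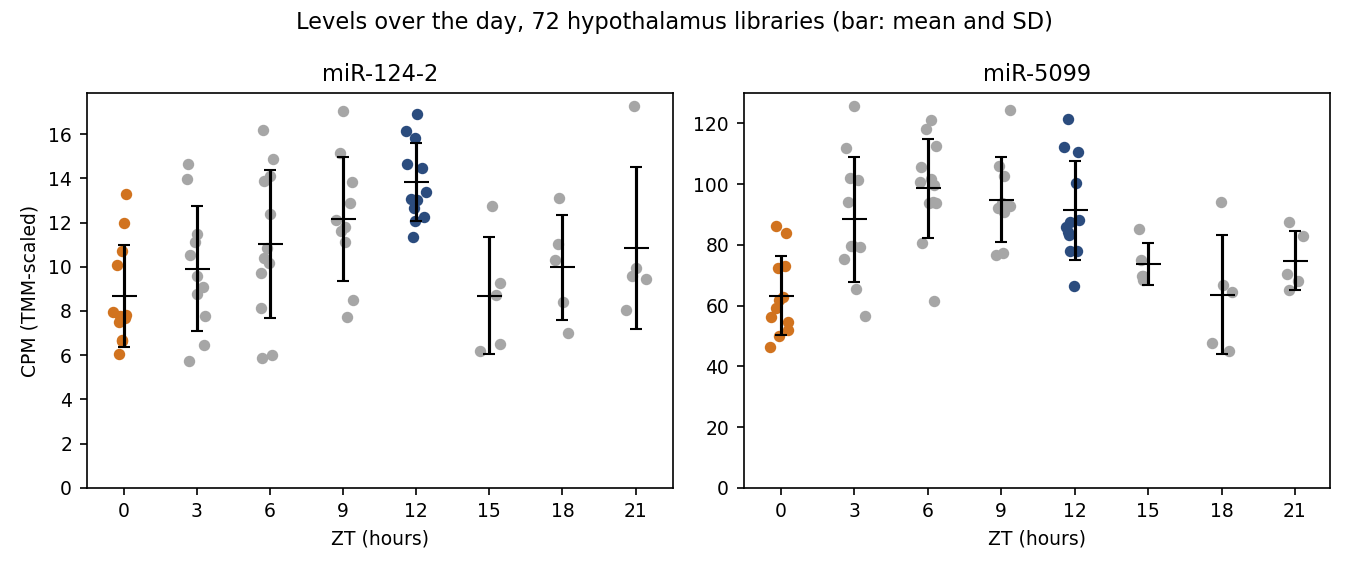
CPM against ZT in hours for 72 hypothalamus libraries, with ZT0 in orange, ZT12 in dark blue, other times in grey, and bars for mean and SD. miR-124-2 means are lowest at ZT0 and ZT15 (8.68 CPM) and highest at ZT12 (13.8 CPM). The highest miR-5099 mean, with passages and library runs pooled, is at ZT6 (98.6 CPM).

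The same 24 CRM codes appear among the cortex and liver libraries, so the difference between tissues was tested with the animal as a block. For cortex 0 of 391 hairpins passed (0%), with 10 at an unadjusted p under 0.05 (2.56%), and DESeq2 called 0. For liver 0 passed (0%), with 15 under 0.05 (3.94%), and DESeq2 called 0. miR-5099 averaged 67.03 ± 7.74 CPM at ZT0 and 92.997 ± 7.47 CPM at ZT12 in cortex (ratio -0.45 ± 0.06, adjusted p = 1.334e-05), where it alone of 378 was called. The hypothalamus ratio differed from that of cortex by -0.10 ± 0.12 (adjusted p = 0.971). In liver its ratio was -0.12 ± 0.10, and the difference was -0.41 ± 0.15 (p = 0.0131, adjusted p = 1).

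miR-124-2 had 3.58 ± 1.07 CPM at ZT0 and 3.65 ± 0.784 CPM at ZT12 in cortex, a ratio of -0.01 ± 0.16. Hypothalamus minus cortex was -0.67 ± 0.21, which had the smallest p of the 391 (p = 0.00425) but adjusted p = 0.971. In liver miR-124-2 had no count in any of these libraries, so no difference is given.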

How the data were processed

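Small RNA was sequenced from hypothalamus, cortex and liver, and total RNA came from frozen tissue through a column kit for small RNA, per the labels' protocols. The authors deposited whole-number counts per hairpin, without normalization. The tools were HTSeq 0.10.0 and STAR 2.7.3a, with GRCm38 (mm10) as the build, per the submitters' processing notes. Trimming, the miRNA annotation release and the handling of reads that fit several hairpins are not given in the sources used here, and 41 tested hairpins carry a copy number in their name. Of 1226 hairpins, 366 had no count in the 24 libraries. Striatum was not used here. Total counts were 1079380 to 3928624 per library. No 2 libraries of a group agreed within sampling noise (lowest chi-square per degree of freedom 17.3).

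edgeR 4.0.16 (R 4.3.3) was used with TMM scaling, filterByExpr and the quasi-likelihood F test on 24 libraries (22 residual degrees of freedom). P-values were adjusted by Benjamini and Hochberg over all tested hairpins, with calls at 0.05. Log2 ratios are ZT0 over ZT12, unshrunk. Printed CPM used TMM over the 72 hypothalamus libraries, a choice made after the values were seen. DESeq2 1.42.0 and limma 3.58.1 served as other tools. On simulated counts for this comparison over 353 hairpins, 8 of 13 changes of 0.5 (log2) and 26 of 27 changes of 1 were recovered, with 0 false calls. The simulated libraries held no difference by run or passage and no library set apart, so the 0 false calls do not cover these. Tissue differences were tests of the tissue by ZT interaction. Figures used Python 3.11.15 and matplotlib 3.10.9.

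The miRNAs named were the called ones, those with the smallest p and a mean of at least 10 CPM up to 20, the 5 most abundant and the 3 most abundant tested members of each of 19 lists, 64 in all. All 64 had a position in RefSeq. miRNAs printed beyond that rule (the other miR-124 copies, miR-183, miR-96, the miR-7 hairpins, miR-122 and miR-486b) were chosen after their values were seen, as were the 6 given daily and run 9 values. The members, lists and tests were chosen with earlier results of these data known. Each library has its own CRM code, but whether animals shared a cage or dissection day is not stated.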

Additional observations from a re-analysis of the deposited data

Results flagged for a closer look

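Samples that stood far from the others of their group, by Dixon's test at the 95% level, were sought in 60 groups of 4 to 10 libraries for 6 miRNAs, and 18 were found. Chance gives about 1 in 20 groups for normally distributed values, which CPM need not be, and the groups share libraries. The 6 miRNAs were picked for their small p, which for miR-375, miR-200c and miR-141 rested on ZT0 replicate 9. The 18 found therefore cannot be set against that rate. The same few libraries account for many of them, and no cause was tested.

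ZT0 replicate 9 was the highest of the 0 h libraries and of the ZT0 libraries in run 9, for miR-375 (143920 CPM), miR-200c (660 CPM) and miR-141 (10076 CPM). ZT9 replicate 8 was the highest at ZT9 for miR-375 (93818 CPM), miR-200c (576 CPM) and miR-141 (6943 CPM). At 24 h the lowest miR-375 library, 443 CPM, stood below the rest.

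For miR-124-2 a library stood above the others at ZT21 (17.3 CPM), at 0 h (10.7 CPM) and among the ZT12 libraries of run 9 (16.9 CPM). For miR-144 the highest library stood apart at ZT18 (206.5 CPM) and among the ZT0 libraries of run 9 (113.6 CPM), and the lowest among its ZT12 libraries (139 CPM). Single high libraries were also found at ZT18 for miR-375 (1132 CPM) and at ZT21 for miR-141 (152.3 CPM).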

How the results depend on the processing

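The 3 calls became 5 with all 72 hypothalamus libraries in the fit, which added miR-141 and miR-200c. They became 1 in the first passage alone (miR-124-2), 1 in the second (miR-5099), 0 with library run as a term and 0 in run 9 alone. Fewer samples entered the passage and run 9 fits. The run term left fewer residual degrees of freedom than the main fit, and 4 of the 10 runs held both groups. With that term the log2 ratio was -0.60 ± 0.15 (SE) for miR-124-2 and -0.56 ± 0.12 for miR-5099. The cause of the changes in calls was not tested. Leaving out each library in turn gave 2 to 4 calls; miR-124-2 and miR-5099 were called in all 24 such fits and miR-375 in 13. Other scalings and filters gave 3 calls, and DESeq2, limma, robust dispersions and passage as a term gave 2 (miR-124-2 and miR-5099). So did leaving out ZT0 replicates 2 and 9 or runs 1 and 2, both chosen after seeing the data. With the replicate number as a block 2 were called, and miR-375 had a ratio of 0.70 (adjusted p = 0.992). Same-numbered libraries deviated together in 11 of 12 pairs (correlation over 0.1, lowest -0.11), and 5 of 12 correlated best with their own number. Replicates 4, 7, 9, 10 and 11 of both groups shared a library run, while the other numbers did not. The numbers were not taken as pairs, since 1 pair fell below 0.1 and the labels tie them to no shared animal or day. For hypothalamus minus cortex, 1 miRNA (miR-375) was called without the animal block, and 0 with each animal left out. Among the named miRNAs 259 of 2559 comparisons changed sign, none of them in a miRNA called in either fit. Depth limits the low hairpins: miR-124-2 had 8 to 66 reads a library, and miR-200c as few as 2.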
